A study of Homo sapiens with 48 samples.

Results

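The clustered histone genes were represented on the array by 53 probe sets of 45 genes, out of 54613 probe sets tested and 19775 genes with a probe set of their own. A probe set was taken when the array annotation gave it a single symbol of the families H2AC, H2BC, H3C, H4C or H1, and another 20 probe sets that list such a symbol together with other symbols were left out. The members comprised 10 probe sets of 8 H2A genes, 14 of 13 H2B genes, 8 of 7 H3 genes, 9 of 8 H4 genes and 12 of 9 H1 genes. Membership was decided by the symbol alone, although this family of genes was singled out with earlier results of these data known.

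The study asked how the adaptor proteins IRS-1 and IRS-2 shape the transcriptional answer to IGF-I, which acts through the type 1 IGF receptor. It used T47D-YA, a variant of the T47D breast cancer line that keeps the receptor and lacks IRS proteins, into which human IRS-1 (clones #10 and #20) or human IRS-2 (clones #1 and #6) had been introduced. Every group was starved in serum-free medium (SFM) and then received SFM with fibronectin (FN), either alone or with IGF-I. RNA was taken after 4 h or 24 h. Each of the 16 groups of clone, time and treatment had 3 Affymetrix arrays, 48 in all. Each cell line was a single clone, so a difference between isoforms rests on 2 clones a side, and the parental IRS-null cells were not analysed here. The deposited values are log2 expression after GC-RMA, and differences between them are log2 fold changes. Arrays of a group correlated at 0.9944 or more, and no replicate pair held identical values. The labels do not say whether arrays of a group came from separate cultures, so the p-values measure only the spread between these arrays, which may be technical. Of 10 luminal breast epithelium markers, 9 averaged 8 or more on the log2 scale, as did 2 of 6 stromal, 1 of 4 immune and 2 of 4 endothelial markers. In the mean of the clones at 24 h, 6 of the luminal markers were lower with IGF-I and 0 higher by adjusted p (median -0.087). Of all probe sets, 8.54% were lower and 8.01% higher in that comparison. The part of these markers in the results was not tested. In such bulk RNA, fewer cells that use a gene and less RNA in each cell cannot be told apart.

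DNA is wound around octamers of the core histones H2A, H2B, H3 and H4, and H1 binds the linker between them. Most genes of these families lie in clusters and are used in S phase, when new DNA must be packed. Their messages usually end in a stem-loop in place of a poly(A) tail, although some of the genes can also give polyadenylated transcripts, and standard labelling for this array starts from poly(A). H1-10 is a replacement linker histone outside the clusters, and H1-6, H1-7, H1-8 and H2BC1 are known mainly from germ cells. H1-7 on chromosome 12 and H1-8 on chromosome 3 also lie outside the clusters. Histone paralogs are near-identical in sequence, so a probe set may also read RNA of a sister gene. This applies above all to the 8 probe sets with the suffix x_at and the 5 with s_at, the one for H2AC6 among them, whose identity at the gene level is therefore uncertain.

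The start regions of 5 genes are shown because they carry the main contrasts described here: H2AC6 had the largest fall after IGF-I, H2AC8 had the next largest among H2A genes, H2BC21 fell most among H2B genes, H4C8 was the only H4 gene that fell, and H1-10 was the member that rose. Each line gives the 250 bases before the RefSeq transcript start in GRCh38.p14, read toward the gene. Capitals mark matches to 3 motifs of promoters, on the printed strand or, as the reverse complement, on the opposite strand. They were the CCAAT box, the TATA box in the spelling TATAAA, and the octamer with the spelling ATTTGCAT. No match overlapped another in these sequences.
H2AC6 (chr6:26123922-26124171, plus strand): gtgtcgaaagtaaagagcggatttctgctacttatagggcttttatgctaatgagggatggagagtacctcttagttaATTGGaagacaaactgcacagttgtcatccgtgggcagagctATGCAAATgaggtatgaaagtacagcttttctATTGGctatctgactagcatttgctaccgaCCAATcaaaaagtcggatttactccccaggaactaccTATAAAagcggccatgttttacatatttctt
H2AC8 (chr6:26216671-26216920, plus strand): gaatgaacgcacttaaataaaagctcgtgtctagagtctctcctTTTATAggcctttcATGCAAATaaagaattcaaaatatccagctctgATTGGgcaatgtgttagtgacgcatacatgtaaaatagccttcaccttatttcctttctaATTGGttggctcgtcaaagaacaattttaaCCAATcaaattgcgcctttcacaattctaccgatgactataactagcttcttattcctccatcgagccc
H2BC21 (chr1:149886683-149886932, minus strand): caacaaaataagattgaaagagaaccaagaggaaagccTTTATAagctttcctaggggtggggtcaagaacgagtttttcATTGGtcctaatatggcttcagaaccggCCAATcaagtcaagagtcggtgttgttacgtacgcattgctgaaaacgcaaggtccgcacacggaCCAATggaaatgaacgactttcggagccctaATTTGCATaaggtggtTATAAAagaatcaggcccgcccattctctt
H4C8 (chr6:26285535-26285784, minus strand): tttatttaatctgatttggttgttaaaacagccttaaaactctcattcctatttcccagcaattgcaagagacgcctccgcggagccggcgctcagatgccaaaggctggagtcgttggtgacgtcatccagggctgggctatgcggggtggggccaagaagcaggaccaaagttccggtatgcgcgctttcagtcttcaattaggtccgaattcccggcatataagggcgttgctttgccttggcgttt
H1-10 (chr3:129316287-129316536, minus strand): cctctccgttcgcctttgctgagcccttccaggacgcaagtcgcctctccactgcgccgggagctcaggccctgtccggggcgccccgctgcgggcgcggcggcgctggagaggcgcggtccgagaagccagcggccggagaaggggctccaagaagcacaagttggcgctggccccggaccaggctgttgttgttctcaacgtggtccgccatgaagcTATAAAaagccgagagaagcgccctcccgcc
All 45 genes were matched to RefSeq by gene identifier and 43 had a start region of 300 bases, 250 before and 50 after the start. A gene with more than one such region was counted when any of them held the motif. CCAAT lay in 37 of the 43 (86.0%), against 34.6% of all 35116 RefSeq start regions of that length. TATAAA lay in 28 (65.1%, against 11.5%), and ATTTGCAT in 16 (37.2%, against 1.77%). The octamer followed histone class. It was found in 6 of 8 H2A and 10 of 13 H2B genes and in no H3, H4 or H1 gene with a start region. The H2AC6 sequence holds CCAAT 3 times, a TATAAA whose first base lies 31 bases before the start, and the octamer on the opposite strand. H4C8 held none of the 3 motifs and H1-10 held TATAAA alone, again 31 bases before its start. H2AC6 and its neighbour H2BC4 point away from each other, and their start regions share 255 of 300 bases. The start regions of H2AC14 and H2BC14, of H2AC15 and H2BC15, and of H2AC17 and H2BC17 overlap as well. A motif in such a shared stretch was counted for both genes. Absence of a match says only that those letters are not in the window.

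IGF-I lowered H2AC6, an H2A gene of the chromosome 6 cluster, in all 4 clones at 24 h (#10 and #20 with IRS-1, #1 and #6 with IRS-2). In clone #10 the SFM arrays read 11.38, 11.44 and 11.60 on the log2 scale and the IGF-I arrays 10.75, 10.64 and 10.68. In clone #20 they read 10.15, 10.24 and 10.27 in SFM and 9.63, 9.62 and 9.52 with IGF-I. The treated arrays lay below every control array in both IRS-1 clones. In clone #1 the values were 10.60, 10.59 and 10.64 in SFM against 9.99, 9.91 and 9.87 with IGF-I. In clone #6 they were 10.54, 10.51 and 10.35 in SFM against 9.55, 9.70 and 9.67 with IGF-I. Again no treated array reached a control array. Of all probe sets, 13.5%, 8.08%, 10.7% and 12.5% lay wholly below the controls at 24 h in clones #10, #20, #1 and #6. The log2 fold change of H2AC6 (± SE, n = 3 arrays a group) was -0.78 ± 0.0607 in clone #10, -0.63 ± 0.0607 in clone #20, -0.69 ± 0.0607 in clone #1 and -0.83 ± 0.0607 in clone #6. The adjusted p in the limma fit was at most 9.57843e-11 in these 4 comparisons. Averaged over the clones the fall was -0.73 ± 0.0304, or 1.66-fold lower, with an adjusted p of 9.99898e-24 in limma. In clone #20 the call rested on replicate C, since without it the change was -0.57, under the 1.5-fold limit. By the methods' t-test with Benjamini-Hochberg adjustment H2AC6 missed the threshold, with p from 0.0557 to 0.103 over the 4 clones.

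**Figure D1:**
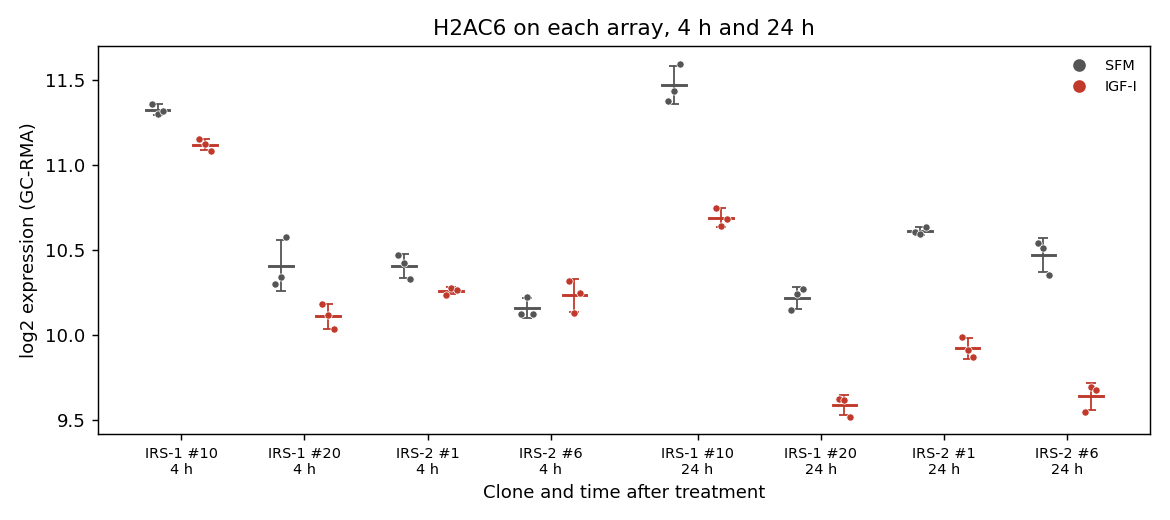
H2AC6 on each of the 48 arrays, as log2 GC-RMA expression, by clone and time. Points are arrays, the horizontal line is the group mean and the bar its SD (n = 3). At 24 h the IGF-I arrays (red) lie below the SFM arrays (grey) in all 4 clones, while at 4 h the change ranges from -0.30 in clone #20 to 0.08 in clone #6.

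At 4 h the H2AC6 change was smaller. The SFM and IGF-I arrays were 11.36, 11.30 and 11.32 against 11.15, 11.12 and 11.08 in clone #10, and 10.30, 10.34 and 10.58 against 10.18, 10.12 and 10.03 in clone #20. The corresponding arrays were 10.47, 10.42 and 10.33 against 10.24, 10.28 and 10.26 in clone #1, and 10.12, 10.22 and 10.13 against 10.32, 10.13 and 10.25 in clone #6. The treated arrays were thus lower without overlap in 3 clones and overlapped the controls in clone #6. Of all probe sets, 9.67%, 7.72% and 9.26% lay wholly below the controls at 4 h in clones #10, #20 and #1. H2AC6 passed the test at 4 h only in clone #20, at -0.30 (limma adjusted p = 0.00213), with -0.21 in clone #10 (adjusted p = 0.0644), -0.15 in clone #1 (adjusted p = 0.314) and 0.08 in clone #6 (adjusted p = 0.768). In clone #20 the pass rested on replicate C, without which the change was -0.17 (limma adjusted p = 0.451). The mean of the clones fell by 0.14 ± 0.0304 (limma adjusted p = 0.000589) and passed without each replicate in turn.

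The control arrays of H2AC6 also moved with time, and not the same way in each clone. From 4 h to 24 h in SFM it rose by 0.21 in clone #1 and by 0.31 in clone #6, fell by 0.19 in clone #20, and differed by 0.14 in clone #10 without passing (limma adjusted p = 0.0334, 0.000269, 0.0242 and 0.215). The change passed without each replicate in turn in clone #6, and not in clones #1 and #20. The 24 h response uses the 24 h controls so these values and the responses are not independent. Levels in SFM set clone #10 apart, with all 6 of its arrays between 11.30 and 11.60. The 18 SFM arrays of the other clones lay between 10.12 and 10.64 and those clones overlapped. The IRS-1 clones together were higher than the IRS-2 clones by 0.44 ± 0.0304 (limma adjusted p = 1.00073e-17), a mean that joins clone #10 with the lower clone #20.

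By the rule of an adjusted p under 0.05 and a change of at least 1.5-fold, few histone probe sets were called. At 24 h these were H2AC6 in each clone and H4C8 in clone #10, so 2 of 53 in that clone and 1 of 53 in each of the others. The share of all probe sets called lower by this rule was 0.126% in clone #10, 0.0641% in clone #20, 0.0220% in clone #1 and 0.0714% in clone #6. No member was called at 4 h in any clone, where 0.0623%, 0.110%, 0.108% and 0.223% of all probe sets were called in either direction in the same order of clones. At an unadjusted p under 0.05 in limma 9, 12, 8 and 2 members passed at 4 h, against 12.7%, 15.8%, 10.6% and 11.0% of all probe sets, and the methods' t-test at an unadjusted p with the 1.5-fold limit also called 0.

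Most histone changes were smaller than 1.5-fold, so the members were also counted by the adjusted p alone. At 24 h, 14 of 53 probe sets were lower in clone #10 (5.03% of all probe sets were), 6 in clone #20 (2.28%), 12 in clone #1 (1.15%) and 13 in clone #6 (2.87%). Higher were 2 in clone #10, H1-5 and H1-10 (2.98% of all probe sets), and 0 in the other clones (4.92%, 2.01% and 0.970%). In the mean of the clones, 18 probe sets of 16 genes fell, which is 34.0% of the members against 8.54% of all probe sets, and 1 rose against 8.01%. Each of the 18 had a change below 0 in all 4 clones. Several of the 18 are x_at probe sets, and over the alternatives of processing the number that fell ranged from 12 to 18. Of the 19 that fell or rose, 16 passed without each replicate in turn. H3C8 missed without replicate B or C, H3C2 without A or B, and H1-2 without replicate B (limma adjusted p = 0.0507). Of them 12 passed in at least 3 clones, and H2AC6, H2BC5 and H2BC21 passed in every clone. The median change over the 53 members was -0.046 against 0.0053 over all probe sets. The 34 members that passed in neither direction ranged from -0.10 to 0.12.

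**Figure D2:**
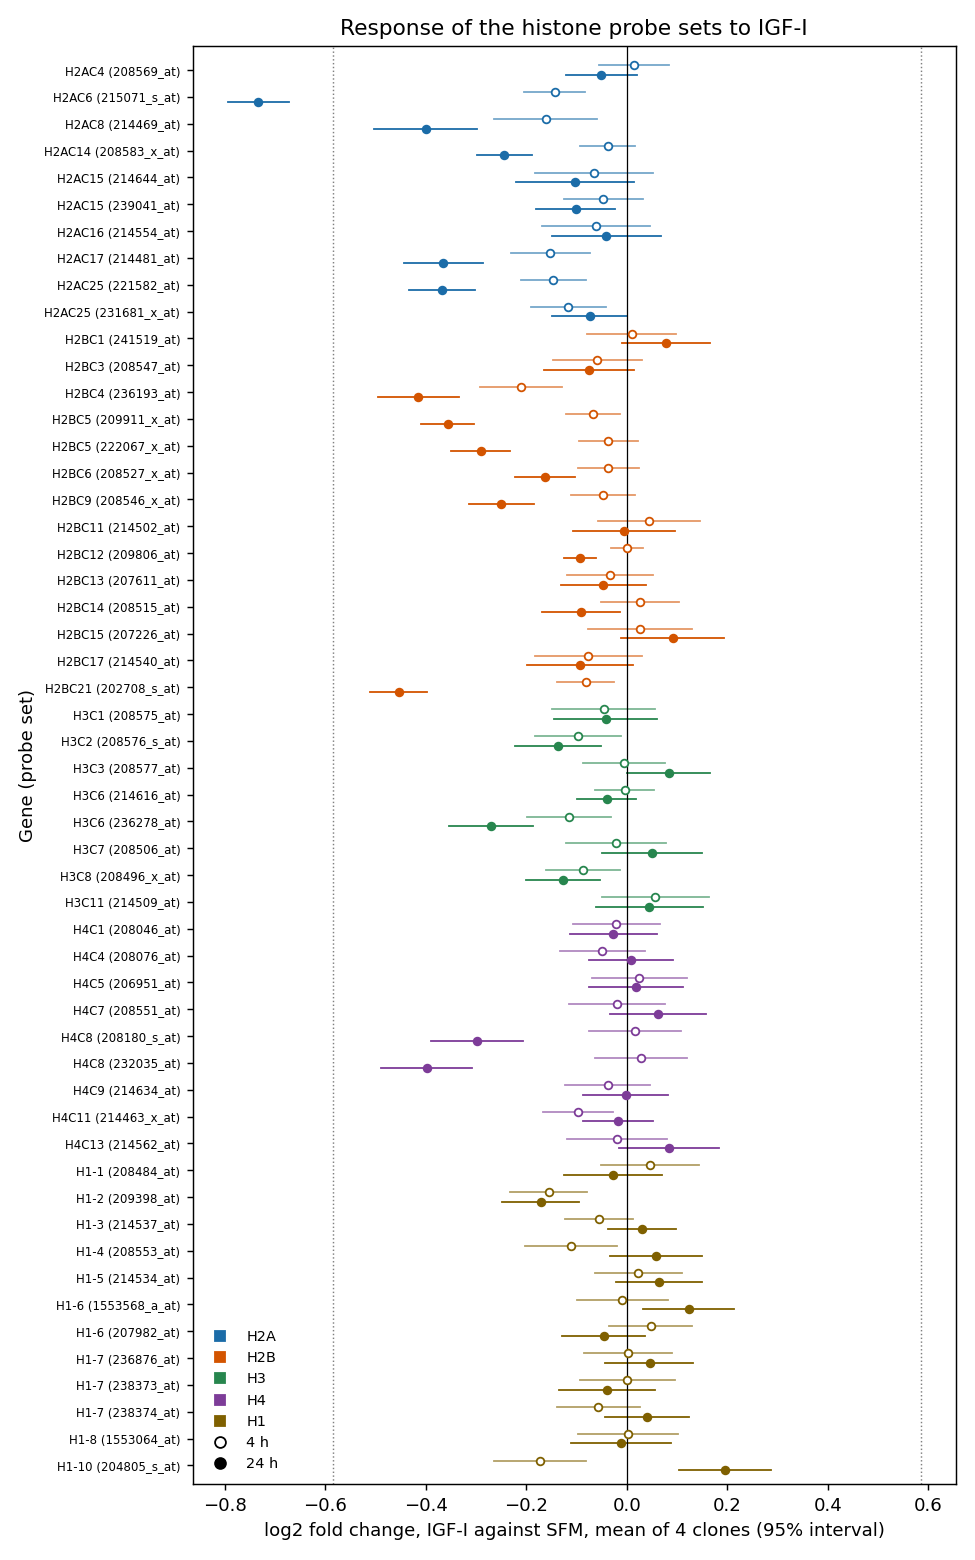
Log2 fold change of each of the 53 histone probe sets, IGF-I against SFM, as the mean of the 4 clones with its 95% interval, at 4 h (open circles) and 24 h (filled circles), coloured by histone class. Dotted lines mark 1.5-fold. At 24 h H2AC6 alone lies beyond the lower line at -0.73, most of the other falls are H2A and H2B genes, and H1-10 lies above 0 at 0.20. Signal also differs between the classes and was not separated from class.

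Among H2A genes, 5 of 10 probe sets fell at 24 h and the class median was -0.17. After H2AC6 the largest fall was that of H2AC8, a cluster H2A gene, at -0.40 ± 0.0510 in the mean of the clones (limma adjusted p = 2.66042e-08). Its SFM and IGF-I arrays were 9.26, 9.29 and 9.29 against 8.73, 8.81 and 8.83 in clone #1, and 9.16, 9.30 and 9.06 against 8.60, 8.63 and 8.79 in clone #6. They were 8.71, 8.95 and 9.02 against 8.58, 8.32 and 8.55 in clone #10, and 8.30, 8.51 and 8.69 against 8.25, 8.23 and 8.42 in clone #20. The groups overlapped only in clone #20, where the change of -0.20 did not pass (limma adjusted p = 0.314). H2AC17 fell by 0.37 and H2AC14 by 0.24. H2AC25, an H2A gene on chromosome 1, fell by 0.37 by its plain at probe set, while its x_at probe set stood at -0.07 and did not pass. The members of the class closest to 0 were H2AC16 at -0.04 (limma adjusted p = 0.746) and H2AC4 at -0.05 (adjusted p = 0.418).

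Among H2B genes, 7 of 14 probe sets fell and the class median was -0.093. H2BC21, a chromosome 1 H2B gene, fell most, by 0.45 ± 0.0279 (limma adjusted p = 1.13873e-17). At 24 h its SFM and IGF-I arrays were 9.86, 9.93 and 10.04 against 9.56, 9.42 and 9.51 in clone #10, and 9.38, 9.31 and 9.41 against 8.98, 9.10 and 9.13 in clone #20. In clone #1 they were 9.71, 9.62 and 9.66 against 9.07, 9.16 and 9.16, and in clone #6 9.95, 9.97 and 9.84 against 9.29, 9.45 and 9.41. No clone showed an overlap between the groups. H2BC4, the neighbour of H2AC6, fell by 0.42 ± 0.0402 (limma adjusted p = 2.04503e-11). Its SFM arrays at 24 h were 9.11, 9.05 and 9.38 in clone #10, 8.25, 8.18 and 8.18 in clone #20, 8.65, 8.61 and 8.52 in clone #1, and 8.58, 8.61 and 8.51 in clone #6. Its IGF-I arrays were 8.86, 8.68 and 8.64, then 7.66, 7.89 and 7.80, then 8.19, 8.47 and 8.34, then 7.97, 8.11 and 8.04 in the same order. All treated arrays of H2BC4 lay below the controls of their clone, and the change passed in 3 clones and missed in clone #1 (-0.26, limma adjusted p = 0.0622).

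H2BC5, read by a pair of x_at probe sets, fell by 0.36 and by 0.29, H2BC9 by 0.25 and H2BC6 by 0.16. H2BC12, with arrays from 13.08 to 13.45 at 24 h, fell by 0.093 ± 0.0159 (limma adjusted p = 1.16269e-05). At the other end stood H2BC15 at 0.09 and the germ cell gene H2BC1 at 0.08, neither of which passed (limma adjusted p = 0.279 each). Adjacent H2A and H2B genes did not always read alike. H2AC6 and H2BC4 both fell. H2AC17 fell by 0.37 beside H2BC17 at -0.09 (limma adjusted p = 0.285), and H2AC14 fell by 0.24 beside H2BC14 at -0.09 (adjusted p = 0.108). On the log2 scale H2AC17 averaged 8.67 and H2BC17 6.13, and H2AC14, read by an x_at probe set, 9.56 and H2BC14 6.44. The part of signal or of sister genes in these differences was not tested. In H2AC4 and H2BC3, and in H2AC15, H2BC15 and H2AC16, no member passed.

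**Figure D3:**
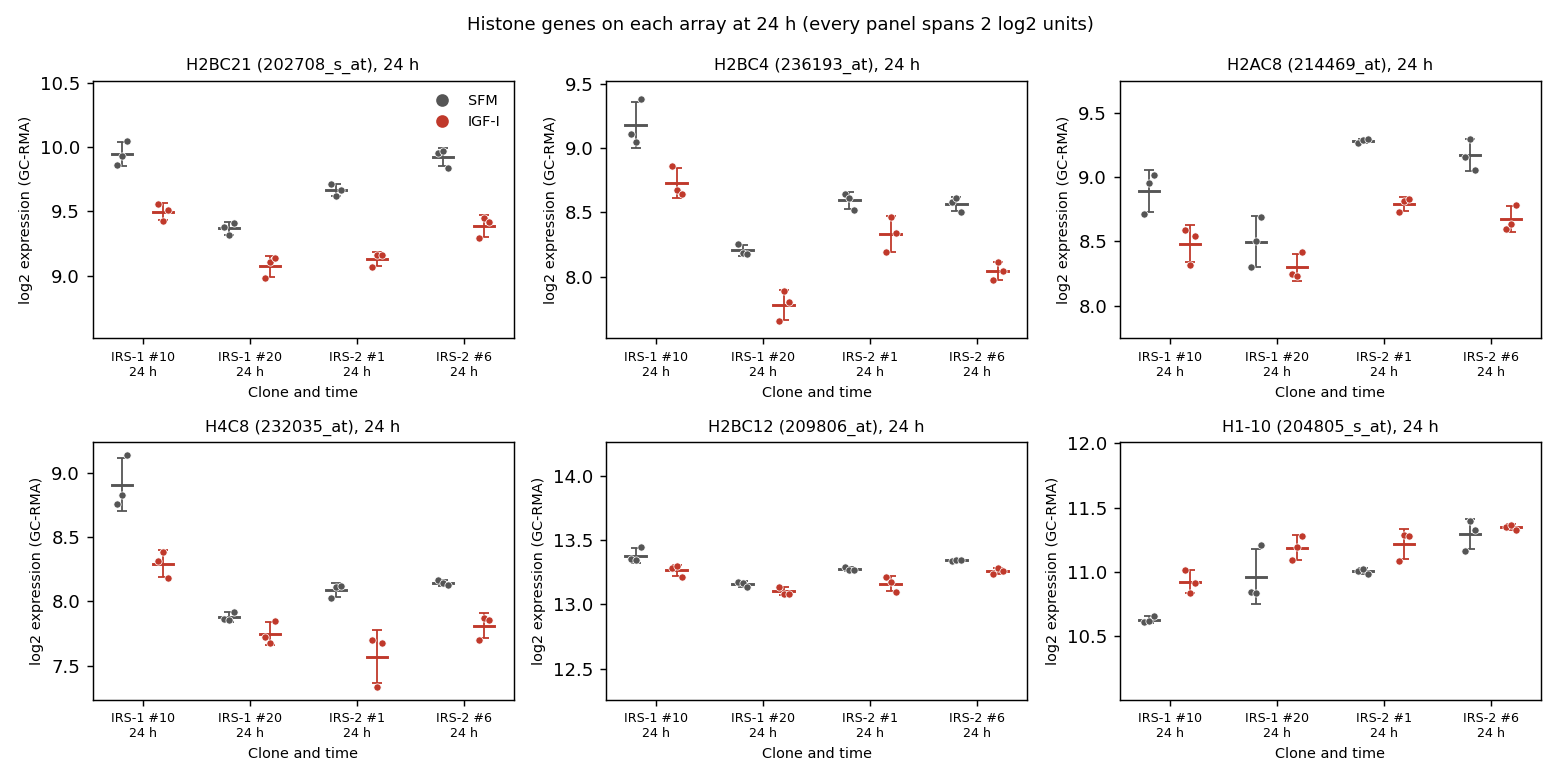
Log2 GC-RMA expression on each array at 24 h for H2BC21, H2BC4, H2AC8, H4C8, H2BC12 and H1-10, by clone, with SFM in grey and IGF-I in red. Points are arrays, lines are means and bars are SD (n = 3), and every panel spans 2 log2 units. The treated arrays of H2BC21 and H2BC4 lie below the controls in each clone, H2BC12 shifts by 0.093 on average, and H1-10 shifts upward by 0.20.

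Among H3 genes, 3 of 8 probe sets fell, with a class median of -0.041. These were H3C6 by one of its probe sets at -0.27, H3C2 at -0.14 and H3C8 at -0.13. The other H3C6 probe set stood at -0.04 and did not pass, so the fall of H3C6 depends on the probe set. H3C3 at 0.08 and H3C7 at 0.05 were the highest of the class and did not pass (limma adjusted p = 0.189 and 0.636).

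Among H4 genes, only the pair of probe sets for H4C8 fell, 2 of 9, and the class median was -0.0025. By the at probe set the SFM and IGF-I arrays at 24 h were 8.75, 8.83 and 9.14 against 8.32, 8.39 and 8.18 in clone #10, and 7.86, 7.85 and 7.92 against 7.72, 7.67 and 7.85 in clone #20. In clone #1 they were 8.03, 8.11 and 8.12 against 7.70, 7.33 and 7.68, and in clone #6 8.16, 8.14 and 8.13 against 7.70, 7.87 and 7.86. The treated arrays lay below the controls in each clone, by the least in clone #20. The change was -0.61 in clone #10 (limma adjusted p = 2.71874e-06), -0.13 in clone #20 (adjusted p = 0.558), -0.52 in clone #1 (adjusted p = 0.000186) and -0.33 in clone #6 (adjusted p = 0.0251). By the s_at probe set the values were -0.45, -0.01, -0.39 and -0.34 in the same order, so both probe sets gave the smallest change in clone #20. The 1.5-fold call of H4C8 in clone #10 was lost without replicate C (-0.44) and in the mean of its probe sets (-0.53). H4C1 at -0.03, H4C7 at 0.06 and H4C13 at 0.08 did not pass (limma adjusted p = 0.807, 0.482 and 0.311). H4C11 stood at -0.02 (adjusted p = 0.850).

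Among the linker histones, H1-2 fell and H1-10 rose, out of 12 probe sets with a median of 0.036. H1-2, a somatic linker histone of the cluster, fell by 0.17 ± 0.0381 at 24 h (limma adjusted p = 0.000644) and passed in no single clone. The SFM and IGF-I arrays of H1-10 at 24 h were 10.61, 10.62 and 10.66 against 11.02, 10.84 and 10.92 in clone #10, and 10.85, 10.84 and 11.21 against 11.09, 11.20 and 11.28 in clone #20. They were 11.01, 11.03 and 10.98 against 11.09, 11.29 and 11.28 in clone #1, and 11.17, 11.39 and 11.33 against 11.35, 11.37 and 11.32 in clone #6. The treated arrays were above all controls in clone #10 and clone #1 and overlapped them in the other clones. About 12% of all probe sets also lay wholly above the controls at 24 h in each of clones #10 and #1, so such a separation was common. H1-10 rose by 0.20 ± 0.0455 in the mean (limma adjusted p = 0.00113) and in a single clone only in clone #10, at 0.29 (adjusted p = 0.0334, and 0.241 without replicate A and 0.106 without C). H1-5 rose in clone #10 alone, by 0.36, where its arrays went from 5.11, 5.17 and 5.06 to 5.58, 5.34 and 5.50, and missed without replicate A (limma adjusted p = 0.101) or C (adjusted p = 0.139). The germ cell linker histone H1-6 read 0.12 by its a_at probe set (limma adjusted p = 0.0513) and -0.05 by its at probe set, and H1-1 read -0.03.

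**Figure D4:**
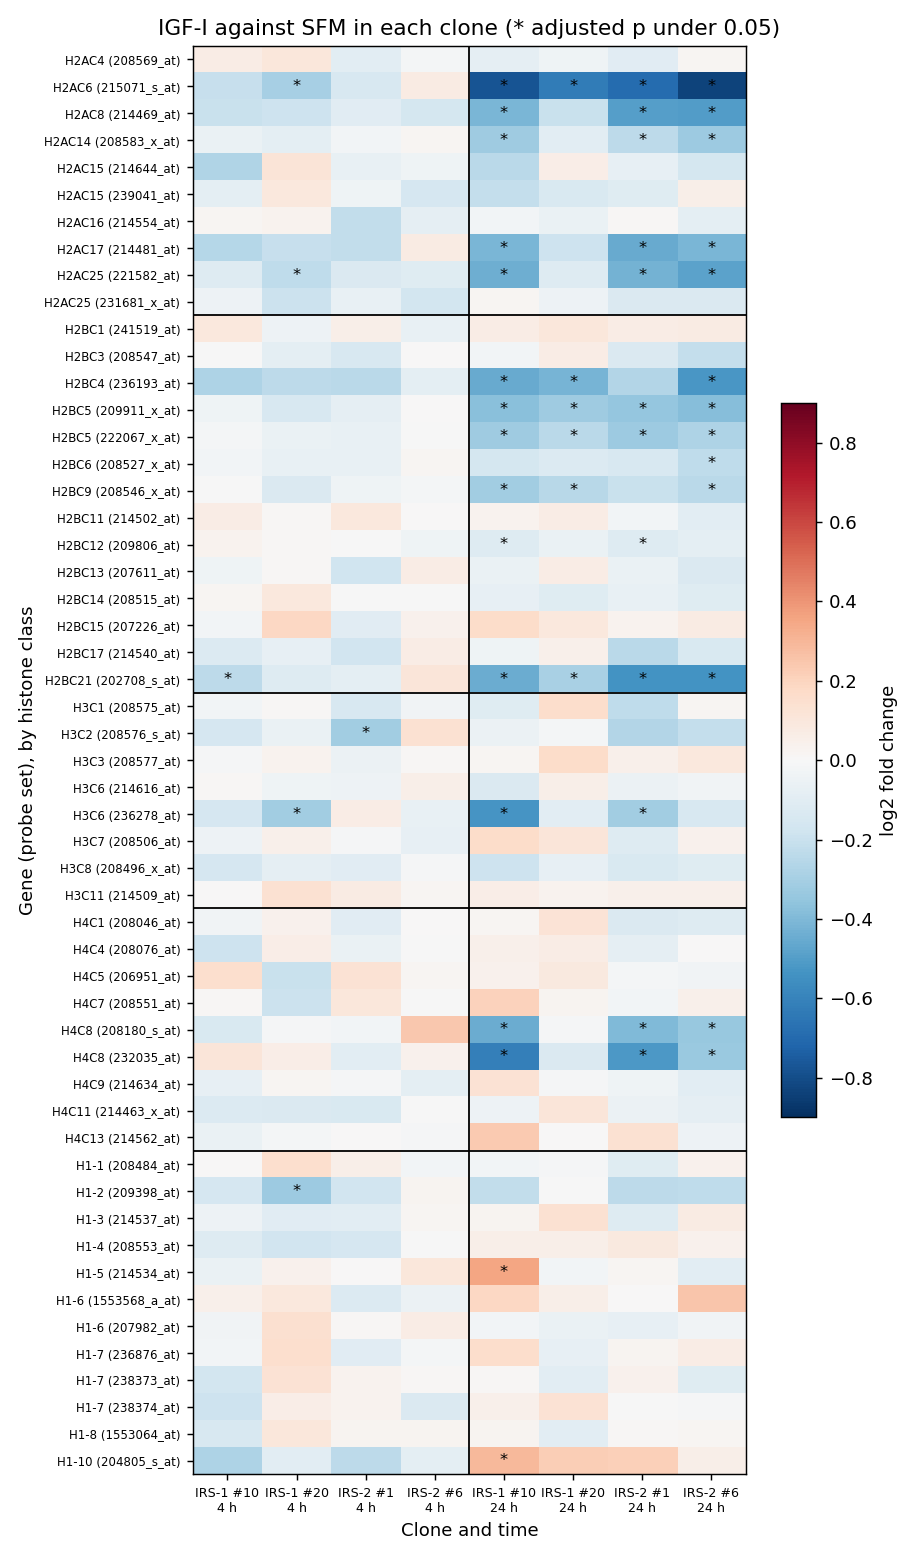
Log2 fold change, IGF-I against SFM, of the 53 histone probe sets (rows, by class) in each clone at 4 h and 24 h (columns), with red for higher and blue for lower in IGF-I. A star marks an adjusted p under 0.05 in limma. Stars at 24 h gather in H2A and H2B genes and H4C8, with 14, 6, 12 and 13 lower probe sets in the 4 clones, and few appear at 4 h.

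At 4 h, 1, 4, 1 and 0 members were lower by adjusted p in clone #10, clone #20, clone #1 and clone #6, against 1.03%, 2.17%, 0.584% and 0.989% of all probe sets, and 0 were higher (0.782%, 0.910%, 1.04% and 1.36%). In the mean of the clones 9 fell (17.0% of members, 8.43% of all probe sets) and 0 rose (4.30% of all probe sets). The 9 were H2AC6, H2AC8, H2AC17, both probe sets of H2AC25, H2BC4, H2BC21, H1-2 and H1-10, with changes from -0.21 for H2BC4 to -0.08 for H2BC21. Without replicate B the number was 4. H3C2 in clone #1 (-0.31) and H3C6, by the same probe set that fell at 24 h, in clone #20 (-0.31) were lower in a single clone. None of the passes in single clones at 4 h held without each replicate in turn.

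The difference between the 24 h and the 4 h response was tested directly. In the mean of the clones 14 probe sets of 12 genes had a lower response at 24 h than at 4 h (3.41% of all probe sets did). H1-10 moved the other way (5.56% of all probe sets). Not all of the 14 had fallen at 4 h. The 14 were 5 H2A, 7 H2B and 2 H4 probe sets and no H3 or H1 probe set. H2AC6 had the largest difference and the only call at 1.5-fold (0.0604% of all probe sets), -0.59 ± 0.0430 (limma adjusted p = 9.08428e-15), followed by H4C8 at -0.43 and -0.31 and H2BC21 at -0.37. H1-10 fell by 0.17 at 4 h and rose by 0.20 at 24 h, a difference of 0.37 ± 0.0644 (limma adjusted p = 4.34282e-05). Of these 15 probe sets, 10 passed without each replicate in turn. Without replicate B the number with a lower response at 24 h was 9, and the H2AC6 difference was just under 1.5-fold without replicate A (-0.584).

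The responses were compared between isoforms, as the study's question asks. By adjusted p in limma 0 members differed between IRS-1 and IRS-2 clones at 4 h (0.260% of all probe sets did) and 0 at 24 h (0.476%), and 7 and 6 passed at an unadjusted p under 0.05 (6.46% and 8.39% of all probe sets). For H2AC6 the IRS-1 response less the IRS-2 response was 0.05 at 24 h, with a 95% interval from -0.07 to 0.18, and -0.22 at 4 h, from -0.34 to -0.09 (adjusted p = 0.181). The largest differences at 24 h were 0.21 for H1-5 and for H3C2 and 0.19 for H4C1, and at 4 h, after H2AC6, -0.19 for H2BC21 and 0.17 for H2AC16. Between clones of the same isoform, H4C8 by the at probe set had a lower 24 h response in clone #10 than in clone #20. The difference was -0.48 ± 0.128 (limma adjusted p = 0.0452, 1.05% of all probe sets in either direction). It did not pass without replicate A, B or C, with changes of -0.58, -0.59 and -0.28 (limma adjusted p = 0.119, 0.108 and 0.673). It was the only member to pass in the 4 comparisons of clones, of which the others called 0.0366% of all probe sets between the IRS-1 clones at 4 h and 0.00183% between the IRS-2 clones at each time.

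In SFM alone some members changed with time, at shares above or below those of all probe sets depending on the clone. In single clones 1, 6, 5 and 8 members passed in either direction in clone #10, clone #20, clone #1 and clone #6. These were 1.89%, 11.3%, 9.43% and 15.1% of the members, against 1.83%, 20.8%, 5.33% and 12.8% of all probe sets. From 4 h to 24 h, in the mean of the clones, 7 probe sets of 5 genes rose (13.2% of members, 7.49% of all probe sets). In the same comparison 2 fell (3.77% of members, 7.58% of all probe sets), and none was called at 1.5-fold (0.108% of all probe sets). H4C8 rose by 0.21 and 0.20, H2BC5 by 0.13 and 0.11, H2AC6 by 0.12, H2AC14 by 0.10 and H2BC12 by 0.06. H2AC25 by the at probe set fell by 0.21 and H1-2 by 0.12. Between the isoforms, over the SFM arrays of both times, 22 members were lower in the IRS-1 clones (41.5%, against 32.9% of all probe sets) and 11 higher (20.8%, against 29.6%), again with none called at 1.5-fold (6.37%). Beside H2AC6 the largest differences in level were -0.45 for H2AC8 and -0.39 for H2AC25. Of 23 measured S phase genes, 22 were also lower in the IRS-1 clones in SFM (median -0.35), and the part of this in the histone values was not tested.

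In 4 lists of genes that work with the histones, more genes rose than fell at 24 h. In the mean of the clones 8.01% of all probe sets rose and 8.54% fell at 24 h. At 4 h 4.30% of all probe sets rose and 8.43% fell. Of the 23 measured S phase genes, 22 rose in the mean of the clones and the median change was 0.20. The list holds cyclin genes and CDK2 beside genes that help to copy DNA or supply its building blocks. CCNA2 (cyclin A2) rose by 0.66, CDC45 (part of the replicative helicase) by 0.65, CDC6 (which loads that helicase) by 0.60 and RRM2 (a subunit of ribonucleotide reductase) by 0.68 in clone #10, the only clone where genes of the list were called at 1.5-fold. The median of the list was 0.42 in clone #10, 0.13 in clone #20, 0.19 in clone #1 and 0.11 in clone #6. At 4 h 3 genes of the list rose and 9 fell, with a median of -0.05.

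Of 23 measured histone chaperones and deposition factors, 14 rose and 2 fell at 24 h with a median of 0.10, and 6 fell at 4 h. Of 18 measured genes for transcription and 3-prime end processing of histone messages, 7 rose and 0 fell at 24 h with a median of 0.059, and 2 rose and 4 fell at 4 h. SLBP, which binds the stem-loop of these messages, rose by 0.09 ± 0.0234 at 24 h (limma adjusted p = 0.00467), and NPAT, a co-activator of the cluster genes, stood at 0.05 (adjusted p = 0.536). Of 9 measured replication-independent variants, a list that holds H1-10, 5 rose and 0 fell at 24 h and 3 fell at 4 h. Of the H2A variants in it, H2AX rose by 0.29, H2AZ1 by 0.17 and H2AZ2 by 0.06 at 24 h. H2AJ stood at -0.08 (limma adjusted p = 0.0628), MACROH2A1 at 0.01 (adjusted p = 0.759) and MACROH2A2 at 0.07 (adjusted p = 0.118). These genes share arrays with the histone comparison, and their values are given side by side only.

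**Figure D5:**
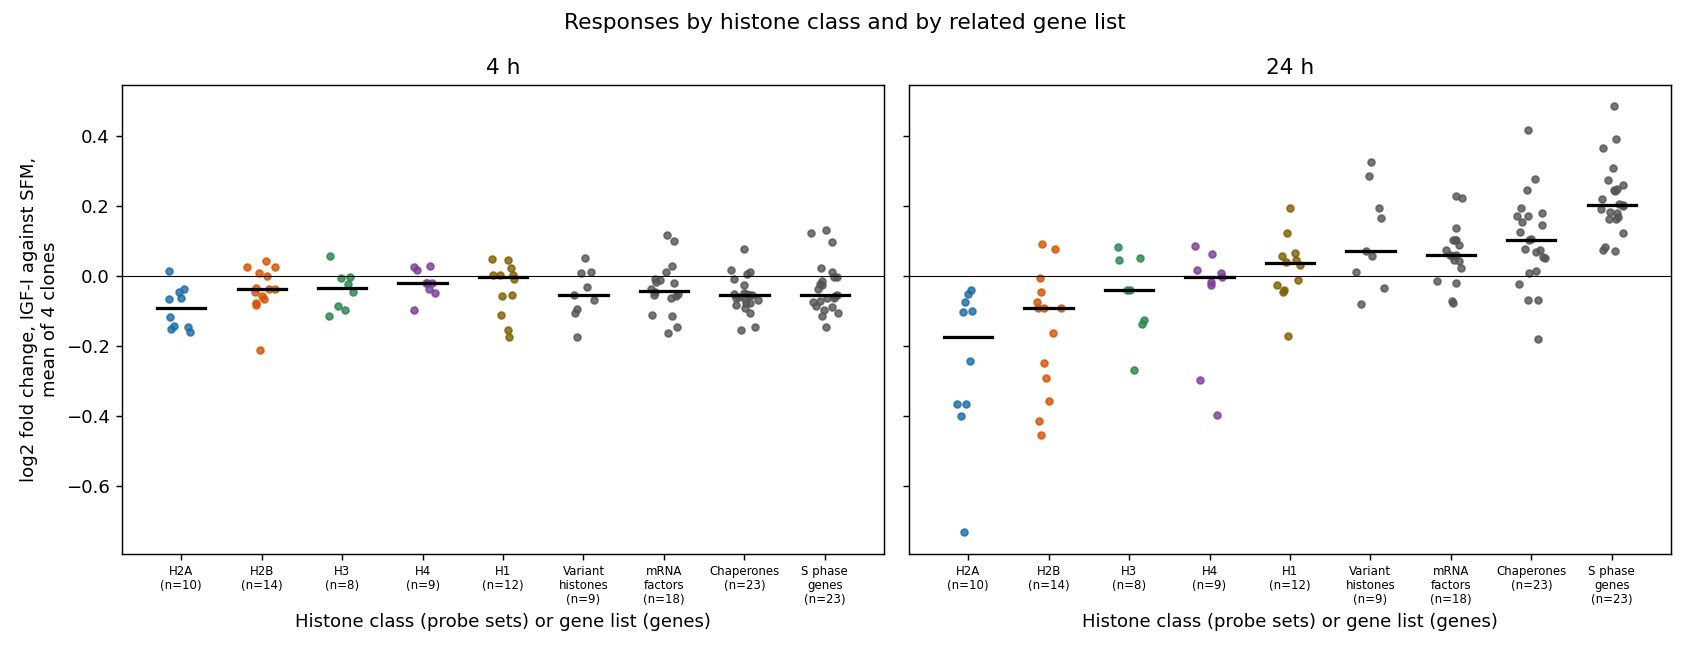
Log2 fold change, IGF-I against SFM, as the mean of the 4 clones, for the probe sets of each histone class (coloured) and for genes of the 4 related lists (grey: replication-independent variant histones, transcription and processing factors of histone mRNA, histone chaperones, S phase genes) at 4 h and 24 h. Points are probe sets or genes and the black line is the median. At 24 h the H2A and H2B medians lie at -0.17 and -0.093 and the S phase median at 0.20.

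What the falling genes shared beyond the array values was described from the start regions and the signal. The octamer lay in 9 of the 16 genes that fell at 24 h by any probe set, and in 7 of the other 27 with a start region. Within H2A and H2B the counts were 9 of 11 and 7 of 10, so the share with the octamer was closer between falling and other genes within these classes. The members also differed in signal. Of 19 member probe sets whose log2 values averaged 8 or more, 15 fell at 24 h and 1 rose, where 16.6% of all probe sets of that signal fell and 16.5% rose. From 6 to 8 the number was 3 of 24 (4.40% of all such probe sets fell), and under 6 it was 0 of 10 (1.75%). Most members under 8 thus passed in neither direction in the mean of the clones. Signal and class went together, as most members averaging 8 or more were H2A or H2B probe sets. The part of signal in the class counts was not tested. As a measure of RNA quality, the 3-prime less 5-prime signal of ACTB averaged 0.150 on IGF-I and 0.177 on SFM arrays, and with it as a covariate the H2AC6 call was made in each clone at 24 h.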

How the data were processed

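RNA of 48 samples was hybridised by the authors to Affymetrix HG-U133 Plus 2.0 arrays after extraction with either of a pair of kits (which kit served which array is not given in the sources used here). The authors deposited log2 values, normalized together by GC-RMA in GeneData Refiner (version not given). GC-RMA subtracts background by probe base content, equalises the distribution of arrays and summarises probes by set. Whether changes at low values are understated was not tested. Values ran from 3.13 to 15.36 and array medians from 7.39 to 7.51.

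From these, 54613 probe sets (62 Affymetrix controls left out) were fitted with limma 3.58.1 in R 4.3.3, fitting 16 group means, an intensity trend and 32 residual degrees of freedom. P-values were adjusted by Benjamini-Hochberg over all probe sets. In the text, fell, rose and passed mean an adjusted p under 0.05, and called adds at least 1.5-fold, the fold limit of the study's methods. The error of a mean over clones is that of the arrays and leaves out the spread between clones. Genes were named from the platform annotation, which gave 1 symbol to 41097 probe sets, several to 1801 and none to 11777. All 45 member genes matched RefSeq by identifier, and 43 had a start region (GRCh38.p14). The start regions of the members and of all RefSeq genes in the table were searched by exact match on both strands.

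Members and gene lists were chosen with earlier results of these data known, and the same holds for the split by signal and the comparison of clones. Genes named in the text were H2AC6, every member called in a clone, the gene of highest mean in each class, the extremes of each class and comparison, and called genes of the related lists, while other genes (SLBP, NPAT, H2A variants, neighbouring genes, members counted in small numbers) were named after their values were seen. On simulated arrays for the clone #10 comparison at 24 h, run on 54613 probe sets, 96% of 1.6-fold and 100% of 2-fold changes were recovered. The number of arrays, 3 a group, limits the precision. Alternatives covered the normalization, dim probe sets, the intensity trend, the arrays fitted, the call rule, the probe sets used, RNA quality, the replicate letters and leaving out each replicate.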

Additional observations from a re-analysis of the deposited data

Results flagged for a closer look

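The response to IGF-I differed between 24 h and 4 h by a direct test, and by at least 1.5-fold, in 5 results. In the mean of the clones 0.0604% of all probe sets were called lower by this rule. The share in single clones is not given here. The mean includes the single clones, so these results are not independent. For H2AC6 the 24 h response less the 4 h response was -0.59 in the mean of the clones (limma adjusted p = 9.08428e-15) and -0.91 in clone #6 (adjusted p = 3.1379e-10), where H2AC6 was at 0.08 at 4 h and -0.83 at 24 h. For H2BC21 it was -0.65 in clone #6 (limma adjusted p = 2.33053e-07), and the value without replicate A was -0.52. For H4C8 it was -0.72 by the at probe set in clone #10 (limma adjusted p = 0.000257), with -0.51 without replicate C, and -0.59 by the s_at probe set in clone #6 (adjusted p = 0.00798), with -0.39 without replicate A. Single arrays within groups of 3 were not tested for standing apart.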

How the results depend on the processing

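No result reversed under any alternative. Among the counts and the H2AC6 values, 451 combinations of result and alternative kept direction and side of the threshold (counts within 1.5 times), 38 counts moved further, 12 values lost the call and 2 gained it, and for other named probe sets 251 did, 18 gained and 14 lost the call. With no fold threshold the number called at 4 h was 1 in clone #10, 4 in clone #20 and 1 in clone #1, at 24 h 16, 6, 12 and 13 in the 4 clones, and in the mean of the clones 9 at 4 h and 19 at 24 h, while H2AC6 then passed at 4 h in clone #20 (-0.30) and in the mean (-0.14). By the same rule it was 15 for the 24 h less 4 h response, 1, 6, 5 and 8 for SFM over time in the 4 clones, and 33 for levels between isoforms. At a 2-fold threshold 0 members were called in any comparison, which took the calls of H2AC6 at -0.78, -0.63, -0.69, -0.83, -0.73 (mean) and -0.59 (24 h less 4 h). The methods' t-test gave 2, 1, 1 and 1 calls at 24 h at an unadjusted p and 0 in each clone after Benjamini-Hochberg, an alternative chosen after seeing the data, again with H2AC6 at -0.78, -0.63, -0.69 and -0.83. Averaging the probe sets of each gene left 1 call in clone #10 at 24 h. Probe sets higher at 24 h in the mean numbered 2 under quantile normalization, median centring and without dim probe sets. Those with a lower response at 24 h than at 4 h numbered 9 without x_at probe sets.

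Leaving out each replicate in turn gave 1 to 3 calls at 24 h in clone #10, 0 to 1 in clone #20, 1 to 2 in clone #1, 1 to 3 in clone #6 and 0 to 1 for the time difference. H2AC6 ranged from -0.69 to -0.57 in clone #20 at 24 h and from -0.600 to -0.584 for the time difference. The number lower in the mean ranged from 4 to 7 at 4 h, from 15 to 17 at 24 h and from 9 to 11 for the time difference. The number higher at 24 h ranged from 1 to 2. Over all alternatives the number lower at 24 h in the mean ranged from 12 to 18. Same-letter arrays correlated over 0.1 in 3 of 24 pairs (-0.47 to 0.31) and 4 of 24 arrays matched their own letter best. With 3 arrays a group this check is weak and cannot decide whether the letters pair arrays. With a replicate block the number lower at 24 h was 18 and H2AC6 was at -0.73 in the mean, and the block changed no call of the counts or of H2AC6. At low signal fewer changes passed: 1.75% of all probe sets under a log2 value of 6 fell and 1.24% rose at 24 h in the mean, and the causes of these shifts were not tested.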
